A study of Mus musculus with 8 samples.

Results

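Goblet cells are the mucus-secreting cells of the gut epithelium, and 10 genes of their mucus programme were followed in mouse small intestinal organoids cultured with or without RANKL. The 10 genes are Muc2, Tff3, Clca1, Fcgbp, Agr2, Zg16, Spink4, Spdef, Creb3l1 and Retnlb, chosen by symbol from the 54532 genes listed. Of these, 9 had enough counts to be tested among 9971 genes tested, and Retnlb had a count of 0 in all 8 libraries. The data are 3′ mRNA counts from 4 control and 4 RANKL-treated libraries of intestinal organoids, which are epithelial cultures grown from crypts. Per the study's methods, such organoids are kept in Matrigel with EGF, NOGGIN and R-spondin, which both groups share, and the mouse lines are on a C57BL/6J background. RANKL is the cytokine that activates the receptor RANK, and its dose and duration for these libraries are not given in the labels. The labels number the replicates without saying whether they came from separate cultures or animals, so p-values measure the spread between these samples, which may be technical.

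Mucus in the intestine is built on MUC2, a gel-forming mucin that goblet cells fold in the endoplasmic reticulum, load with O-linked sugars in the Golgi, pack into granules and release together with several other secreted proteins. FCGBP, ZG16, CLCA1, TFF3 and SPINK4 are among the proteins secreted with it, and AGR2 is a disulfide isomerase of the endoplasmic reticulum needed for MUC2 production. SPDEF is an ETS-family transcription factor that promotes goblet cell maturation downstream of ATOH1, the factor that commits cells to the secretory lineage. CREB3L1 is a membrane-bound transcription factor linked to secretory capacity.

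The 10 members lie on 7 different chromosomes. By the GENCODE M21 annotation of GRCm38, no exon of theirs overlaps an exon of another gene on either strand. Muc2 covers chr7:141690340-141754693 on the plus strand in 47 exonic blocks, Fcgbp lies at chr7:28071236-28120862 on the plus strand and Zg16 at chr7:127050156-127087328 on the minus strand. Tff3 at chr17:31125306-31129646 and Spdef at chr17:27714352-27728955 are both on the minus strand. RefSeq promoter sequence was at hand for 4 of the 10 members, namely Muc2, Fcgbp, Agr2 and Spdef. Of these, 3 are shown here as the 250 bases before the start of transcription, read 5′ to 3′ on the gene's strand in build GRCm38.p6. Muc2 is shown as the gel-forming mucin, Fcgbp as the most abundant other member with a promoter at hand, and Spdef as the member that passed the test below. The windows are chr7:141690090-141690339 for Muc2, chr7:28070986-28071235 for Fcgbp and chr17:27728952-27729201, minus strand, for Spdef. Capitals mark CAGCTG, an E-box of the kind bound by basic helix-loop-helix factors such as ATOH1, whose letters read the same on both strands.
Muc2: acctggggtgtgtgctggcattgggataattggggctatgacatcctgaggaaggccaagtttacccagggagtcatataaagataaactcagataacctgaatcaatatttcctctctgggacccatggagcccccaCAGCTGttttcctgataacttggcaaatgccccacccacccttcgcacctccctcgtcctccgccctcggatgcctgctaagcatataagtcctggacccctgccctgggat
Fcgbp: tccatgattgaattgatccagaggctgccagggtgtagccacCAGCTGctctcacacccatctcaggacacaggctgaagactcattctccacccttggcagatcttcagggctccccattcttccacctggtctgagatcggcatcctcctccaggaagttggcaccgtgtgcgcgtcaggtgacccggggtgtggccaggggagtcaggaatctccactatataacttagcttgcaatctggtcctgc
Spdef: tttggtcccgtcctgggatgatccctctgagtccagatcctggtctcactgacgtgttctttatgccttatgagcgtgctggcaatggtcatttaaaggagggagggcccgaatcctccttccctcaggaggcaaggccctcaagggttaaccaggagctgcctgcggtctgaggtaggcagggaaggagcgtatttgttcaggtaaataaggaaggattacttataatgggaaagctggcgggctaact
The Muc2 window held 1 CAGCTG, 112 to 107 bases before the start, and the Fcgbp window held 1, 208 to 203 bases before it. The Agr2 and Spdef windows held none. These letters occurred in 13% of 32851 promoter windows of the same length. The NF-kB consensus, the ETS letters CCGGAA and the related letters CCGGAT, searched on both strands, occurred in 7.25%, 12% and 4.94% of these windows and in none of the 4 members' windows. A match describes letters in a window and is not evidence of binding.

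Depth differed between libraries. Total counts ran from 583663 in control replicate 4 to 7807298 in control replicate 1, and with RANKL from 613135 to 1923354. Levels are given in CPM, counts scaled to a library of 1000000. A gene with a count of 0 may have a level of up to 3 counts, which corresponds to 0.384 CPM in control replicate 1 and 5.14 CPM in control replicate 4. Such floors cover counting error only. Markers of cells outside the epithelium were near 0: none of 15 stromal, immune and endothelial markers passed the filter on low counts, 5 of them were at 0 throughout, and their summed level was 8.05 to 24.1 CPM in control and 7.57 to 12.9 CPM in RANKL libraries. M cell markers moved with the treatment, as all 9 tested of 11 listed rose and their sum went from between 61.2 and 84.3 CPM to between 1923 and 2176 CPM. Of all genes tested, 13.6% rose at an adjusted p under 0.05 in edgeR. Spib, a transcription factor of M cells, went from 4.35 ± 1.42 to 1607 ± 124 CPM (mean ± SD, n = 4 each). Both Spib and Sox8 (0.131 ± 0.151 to 10.6 ± 2.90 CPM) passed the filter on low counts through their RANKL libraries alone. For such genes a rise was favoured by the filter, so the 9 of 9 rises are not independent of it. Gp2, a marker of mature M cells, was at 0 in all libraries. Their part in the results below was not tested.

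Addition of RANKL left the total output of the mucus genes close to that of control. The 10 genes together took 0.314% ± 0.028 of all counts in control and 0.330% ± 0.012 in RANKL libraries (SD, n = 4 each). The summed level was 3372, 2824, 3485 and 2996 CPM in control replicates 1 to 4 and 3439, 3227, 3232 and 3167 CPM in the RANKL replicates. These summed RANKL levels all fell inside the control range. As a share of counts, RANKL replicate 1 at 0.347% was above the highest control, replicate 1 at 0.339%. Zg16 and Tff3 were the most abundant members, at 30.9% and 25.3% of the summed control level and 34.5% and 24.5% of the RANKL level, and Muc2 itself made up 8.60% and 7.16%. In this 3′ assay a transcript is read near its end, so CPM was not divided by length. In such bulk samples, fewer goblet cells and less RNA per goblet cell cannot be told apart.

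Of the 9 members tested, 1 passed an adjusted p of 0.05 in edgeR's quasi-likelihood test, Spdef, and it was lower with RANKL. Across all 9971 genes tested, 25.9% passed, 13.6% higher and 12.4% lower. The members' median log2 fold change was -0.03, beside 0.00 for all genes tested, with 3 positive and 6 negative. The control and RANKL ranges overlapped for all 9, whereas they did not overlap for 24.6% of all genes. An unadjusted p under 0.05 was reached by 4 members (Muc2, Agr2, Zg16 and Spdef), against 36.3% of all genes. The 95% interval lay within a 2-fold change either way for 8 of 9 members, and for 81.7% of all genes.

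**Figure D1:**
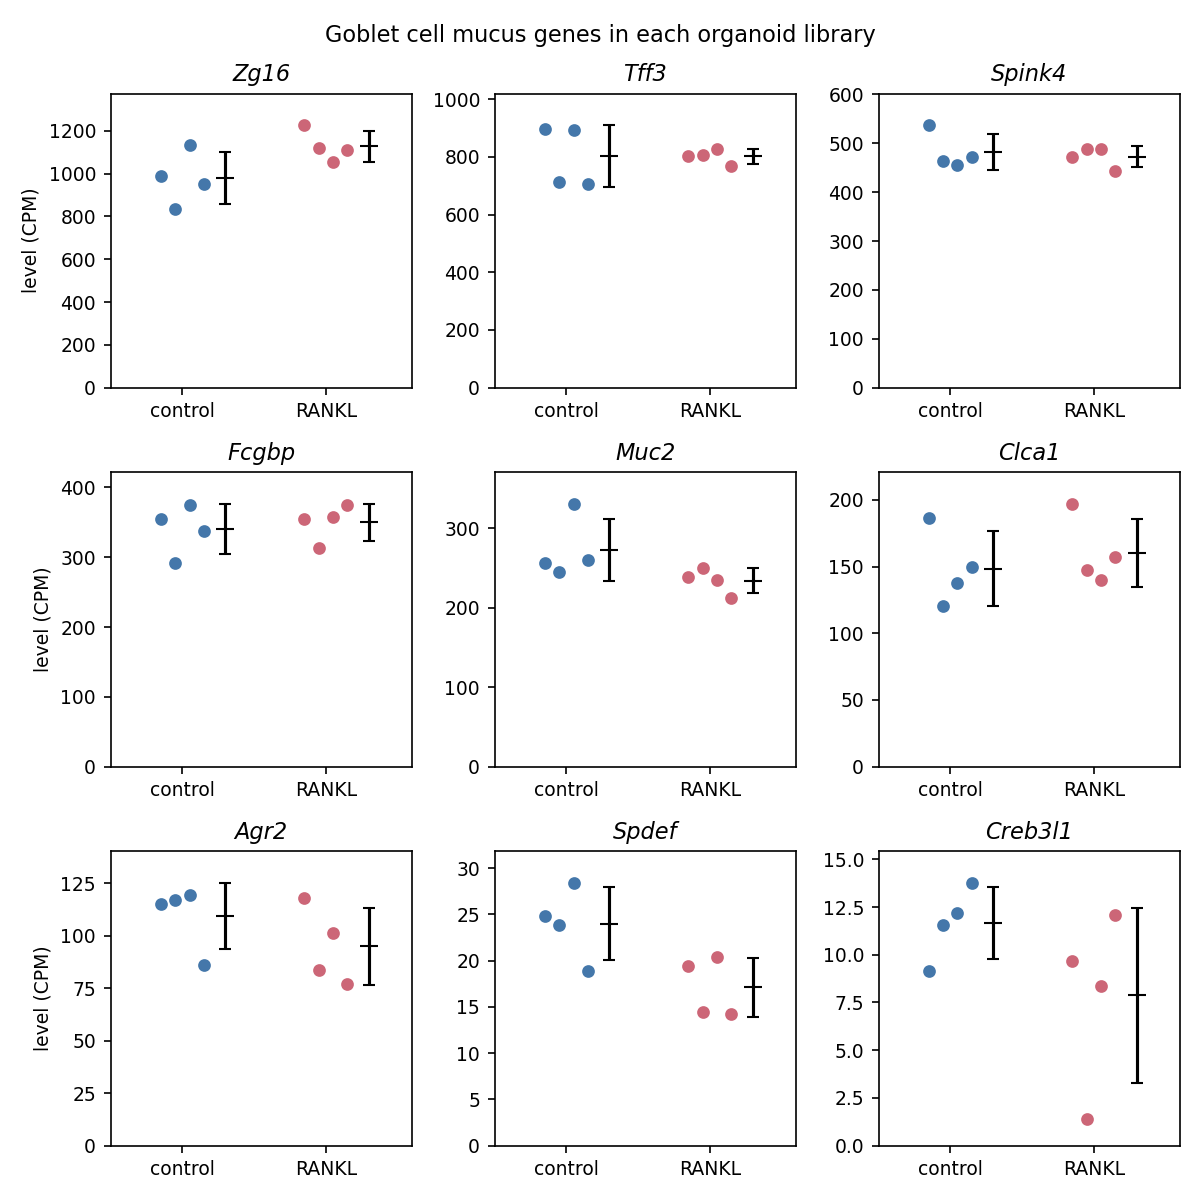
Level in CPM (vertical axes, from 0, scale set per gene) of the 9 detected members in the 4 control (blue) and 4 RANKL (red) libraries, replicates 1 to 4 from left to right, with the mean and SD as a bar to the right of each group. The groups overlap for every gene, and the lowest level in the plot is Creb3l1 at 1.38 CPM in RANKL replicate 2.

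Among the genes of secreted proteins, RNA of the mucin gene Muc2 was slightly lower with RANKL, short of the threshold. Muc2 was at 256, 245, 330 and 260 CPM in the control replicates and at 239, 249, 235 and 213 CPM in the RANKL replicates. Control replicate 3 was the highest library, and only RANKL replicate 2 exceeded the lowest control. The log2 fold change of Muc2 was -0.23 ± 0.11 (SE), with a 95% interval from -0.45 to -0.01, and its adjusted p in edgeR's quasi-likelihood test was 0.117. Without control replicate 3 the value was -0.12.

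Zg16, a lectin-like protein that binds Gram-positive bacteria in the mucus, had the highest level of the 10. It was at 991, 837, 1132 and 953 CPM in control and at 1227, 1121, 1054 and 1110 CPM in RANKL libraries. Only control replicate 3 reached the RANKL range. The log2 fold change of Zg16 was 0.20 ± 0.10 (95% interval 0.00 to 0.40), with an adjusted p of 0.137 in edgeR's quasi-likelihood test. Zg16 passed at 0.28, adjusted p = 0.019 in edgeR's test, when control replicate 3 was left out, and in none of the other alternatives.

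Tff3, a trefoil peptide of epithelial repair, was the second most abundant member. Its level was 897, 713, 895 and 705 CPM in control and 802, 808, 829 and 767 CPM in RANKL libraries. The controls thus split into a pair above and a pair below all RANKL libraries. For Tff3 the log2 fold change was -0.01 ± 0.10, with a 95% interval from -0.21 to 0.19.

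Spink4, a small protein with a Kazal-type inhibitor domain, was the steadiest member in the controls, with a coefficient of variation of 7.77%. It was at 537, 464, 455 and 473 CPM in control and at 471, 489, 488 and 443 CPM in RANKL libraries. Control replicate 1 was highest and the other libraries lay close together. Spink4 had a log2 fold change of -0.03 ± 0.09, interval -0.22 to 0.16.

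Fcgbp, a large protein of the mucus gel with repeated von Willebrand factor D domains, was at 355, 292, 375 and 337 CPM in control and at 355, 312, 358 and 374 CPM in RANKL libraries. The groups covered almost the same range. Fcgbp had a log2 fold change of 0.04 ± 0.10, interval -0.17 to 0.25.

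Clca1, a secreted metalloprotease that processes MUC2, was at 186, 120, 138 and 150 CPM in control and at 197, 147, 140 and 157 CPM in RANKL libraries. Replicate 1 was the highest of each group. Clca1 had a log2 fold change of 0.08 ± 0.13, interval -0.19 to 0.34. Tff3, Spink4, Fcgbp and Clca1 each changed sign in at least 1 alternative fit, with sizes of at most 0.08 there, and passed in none.

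Retnlb, a resistin-like protein of goblet cells known to be induced in worm infection, was not detected. Its count was 0 among 16214577 control and 5763309 RANKL counts, which allows a pooled level of up to 0.185 and 0.520 CPM (3 counts over each group).

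Of the folding enzyme Agr2 and the regulators Spdef and Creb3l1, Spdef alone passed the test. Agr2 was at 115, 117, 120 and 86.0 CPM in control and at 118, 84.0, 101 and 76.9 CPM in RANKL libraries. Control replicate 4, one of the shallow libraries, lay far below the other controls, and RANKL replicate 1, the other shallow library, lay among them. For Agr2 the log2 fold change was -0.28 ± 0.13 (interval -0.55 to -0.02), with an adjusted p of 0.104 in edgeR's quasi-likelihood test. Without those shallow libraries Agr2 passed at -0.42 (adjusted p = 0.022, edgeR), and without RANKL replicate 1 alone at -0.37 (adjusted p = 0.049, edgeR). With all libraries thinned once at random to the shallowest, Agr2 was at 0.11, the opposite direction.

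Spdef, the only member past the threshold, was a low-count gene. It had 195, 89, 112 and 11 counts in control and 12, 21, 39 and 26 in RANKL libraries. Its level was 24.8, 23.9, 28.4 and 18.9 CPM in control and 19.4, 14.5, 20.3 and 14.3 CPM in RANKL libraries. The first 3 controls lay above all RANKL libraries, and control replicate 4 lay between them. The log2 fold change of Spdef was -0.57 ± 0.20 (interval -0.97 to -0.17), with an adjusted p of 0.031 in edgeR's quasi-likelihood test, and an exact two-sided permutation test on its CPM gave p = 0.0857, where 0.0286 is the smallest that 4 against 4 allows. The call depended on the fit: Spdef stayed lower in every alternative but missed the threshold in several, among them DESeq2 (adjusted p = 0.159), the fit with log2 depth added as a covariate (adjusted p = 0.245 in edgeR), libraries thinned to the shallowest (adjusted p = 0.429 in edgeR), and the fits without control replicate 3, RANKL replicate 2 or RANKL replicate 4 (adjusted p in edgeR 0.067, 0.108 and 0.139). With that covariate, no member reached an unadjusted p under 0.05 in edgeR.

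Creb3l1 was the least abundant detected member, with 72, 43, 48 and 8 counts in control and 6, 2, 16 and 22 in RANKL libraries. These are 9.17, 11.5, 12.2 and 13.8 CPM in control and 9.69, 1.38, 8.34 and 12.1 CPM with RANKL. RANKL replicate 2 was far below all others. The log2 fold change of Creb3l1 was -0.48 ± 0.33, and its interval from -1.15 to 0.18 was the only one among the members to reach a 2-fold change, so that a fall of that size was not excluded at this depth.

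**Figure D2:**
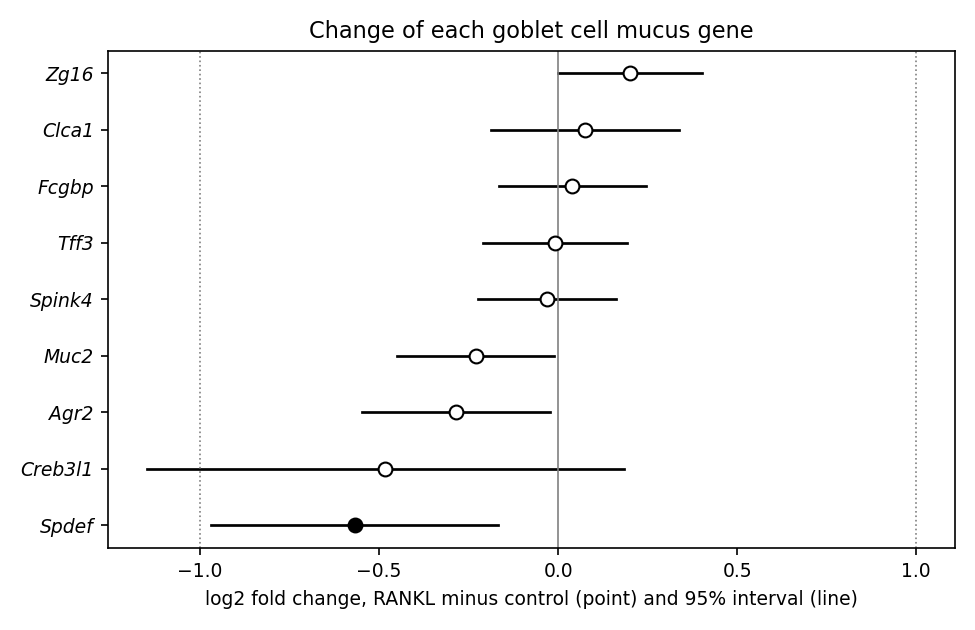
Log2 fold change (points) of RANKL minus control for the 9 tested members with the 95% interval (lines), with dotted lines at a 2-fold change either way and a filled point for an adjusted p under 0.05 in edgeR. The points run from -0.57 for Spdef to 0.20 for Zg16, and all intervals except that of Creb3l1 stay between the dotted lines.

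The members were next set against Muc2 within each library, a ratio of counts that does not depend on library scaling. The 7 members other than Muc2 with at least 10 counts in every library were compared. Zg16 had the largest shift. Its count was 3.88, 3.42, 3.43 and 3.67 times that of Muc2 in control and 5.14, 4.50, 4.49 and 5.22 times in RANKL libraries. All RANKL ratios were above all control ratios, a difference of 0.43 on the log2 scale. The exact two-sided permutation test gave p = 0.0286, the smallest possible, and 0.2 after Benjamini-Hochberg adjustment over the 7 members. Clca1, Fcgbp, Tff3 and Spink4 had differences of 0.33, 0.26, 0.22 and 0.19, Agr2 of 0.00 and Spdef of -0.28. Their groups overlapped, and none of the 7 passed the adjusted exact permutation test, in which a single member with fully separate groups can reach no less than 0.2. All of these ratios share the Muc2 count.

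**Figure D3:**
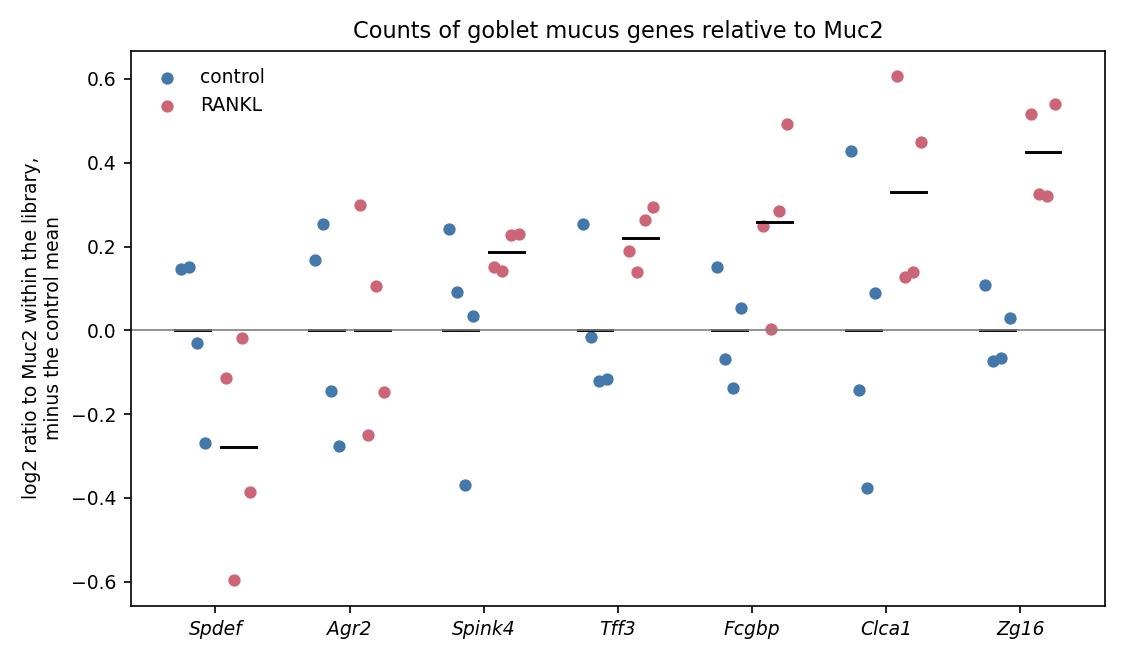
Log2 ratio of each member's count to the Muc2 count in the same library, minus the mean of the controls (vertical axis), for 7 members in control (blue) and RANKL (red) libraries, with group means as black bars. For Zg16 all RANKL points lie above all control points, with a mean 0.43 higher, and the groups overlap for the other 6.

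Across the 8 libraries the members moved together only loosely. Of 36 pairs of members, 25 had a positive Pearson r of log2 CPM, the highest being 0.87 for Spdef with Agr2 and 0.70 for Spdef with Muc2. The mean standardised log2 CPM of the members was 0.70, -0.57, 0.72 and -0.31 in the control and 0.40, -0.55, 0.03 and -0.42 in the RANKL replicates, so spread within each group exceeded the shift between them. Outside the members, 9955 genes at a mean of at least 5 CPM in either group were ranked by likeness of log2 CPM to this mean pattern. The top 5 were Ern2 (Pearson r = 0.91), Dnase1 (0.89), Smad3 (0.88), Ndufv3 (0.87) and Pnkd (0.87). They are the extremes of a large ranking over 8 libraries, and whether such values exceed chance was not tested. These are descriptions over 8 libraries that share treatment groups and differ in depth.

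Some genes on wider goblet-associated lists changed with RANKL. In bulk samples these changes cannot be assigned to goblet cells. In 5 further lists of goblet-associated genes that exclude the members, 86 of 118 genes were tested, and 20 passed higher and 13 lower in edgeR, which is 38.4% of those tested beside 25.9% of all genes. The lists were chosen with earlier results of these data known.

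Among other mucins, trefoil factors and Clca-family genes, 6 of 8 tested rose and none fell (75% called, 25.9% over all genes). The median log2 fold change was 0.72. Clca4b, a calcium-activated chloride channel regulator, rose from 42.1 ± 8.36 to 143 ± 16.5 CPM (log2 fold change 1.73 ± 0.14). Clca3a2 rose by 1.66 ± 0.19 and Clca3a1 by 0.77 ± 0.23, and these are paralogs of 1 family, and whether reads were split between them was not tested. Clca3a1 missed the threshold with DESeq2 and without RANKL replicate 4. Muc4, a membrane-bound mucin, went from 10.5 ± 3.02 to 21.5 ± 5.31 CPM (1.17 ± 0.24), and Muc13, another membrane-bound mucin, went up from 784 to 1076 CPM on average (0.45). Muc5ac and Muc6, gel-forming mucins of the stomach, were at 0 in all libraries.

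Among other genes listed for goblet cells, 2 of 16 tested rose and 1 fell (18.8% called, 25.9% over all genes). Whether they were enriched in goblet cells here was not tested. The median was 0.12. Guca2a, which encodes the peptide guanylin, was at 163, 259, 284 and 241 CPM in control and at 877, 769, 732 and 802 CPM in RANKL libraries. No control came near the RANKL range, and the log2 fold change of Guca2a was 1.75 ± 0.12 (adjusted p = 1.76e-12, edgeR). Ttc39a rose by 1.80 ± 0.29 from a low level. Nlrp6, an innate sensor linked to mucus release, fell from 313 ± 38.2 to 166 ± 14.5 CPM (log2 fold change -0.92 ± 0.11).

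Among genes of protein folding and secretion, 5 of 26 tested rose and 2 fell (26.9% called, 25.9% over all genes). The median was -0.03. Uap1 is on this list although it makes the sugar donor UDP-N-acetylglucosamine and is not a folding enzyme. Uap1 rose from 41.8 ± 7.78 to 113 ± 9.44 CPM (log2 fold change 1.38 ± 0.13), Dnajc10 by 0.75 ± 0.10 and Pdia5 by 0.74 ± 0.21. The last 2 are a reductase and a disulfide isomerase of the endoplasmic reticulum, as Agr2 is an isomerase, and Pdia5 missed the threshold with DESeq2. The genes that fell were Ern2, the epithelial IRE1 beta sensor of the unfolded protein response, at -0.60 ± 0.21, and Serp1, at -0.29 ± 0.11. Both missed the threshold in several alternatives, and Ern2 was at 0.07 with the libraries thinned. Xbp1, the target of IRE1 sensors, averaged 96.4 CPM in control and 89.2 CPM in RANKL libraries and did not pass (adjusted p = 0.393, edgeR).

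Among enzymes that build mucin-type O-glycans, 1 of 16 tested rose and 5 fell (37.5% called, 25.9% over all genes). The median was -0.15. The polypeptide N-acetylgalactosaminyltransferases Galnt7 and Galnt6, which attach N-acetylgalactosamine to proteins, fell most. Galnt7 had levels of 261, 254, 303 and 248 CPM in control and 87.2, 114, 117 and 91.2 CPM in RANKL libraries (log2 fold change -1.37 ± 0.11). Galnt6 had levels of 207, 179.5, 237 and 162 CPM in control and 90.4, 77.1, 77.2 and 75.2 CPM in RANKL libraries (log2 fold change -1.34 ± 0.12). Every RANKL library was below every control library for both genes. Gcnt3, a core-branching enzyme of mucin glycans, fell by 0.95 ± 0.15 on the log2 scale. Nans, a sialic acid synthase, rose by 0.52 ± 0.12.

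Among regulators of secretory and goblet fate, 6 of 20 tested rose and 5 fell (55% called, 25.9% over all genes). The median was -0.12. Il4ra, the receptor chain shared by interleukin 4 and interleukin 13, rose from 46.8 ± 8.25 to 185 ± 45.3 CPM (log2 fold change 2.10 ± 0.14). The Notch ligand Dll1 rose by 1.37 ± 0.22 and Foxa1 by 1.18 ± 0.29. Foxa3, a forkhead factor of the secretory lineage, fell from 366 ± 42.4 to 208 ± 27.7 CPM (-0.80 ± 0.11), and Klf4 and Elf3 fell by 0.51 ± 0.12 and 0.49 ± 0.11 on the log2 scale. Atoh1 averaged 6.08 CPM in control and 6.03 CPM in RANKL libraries and did not pass (adjusted p = 0.859, edgeR).

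**Figure D4:**
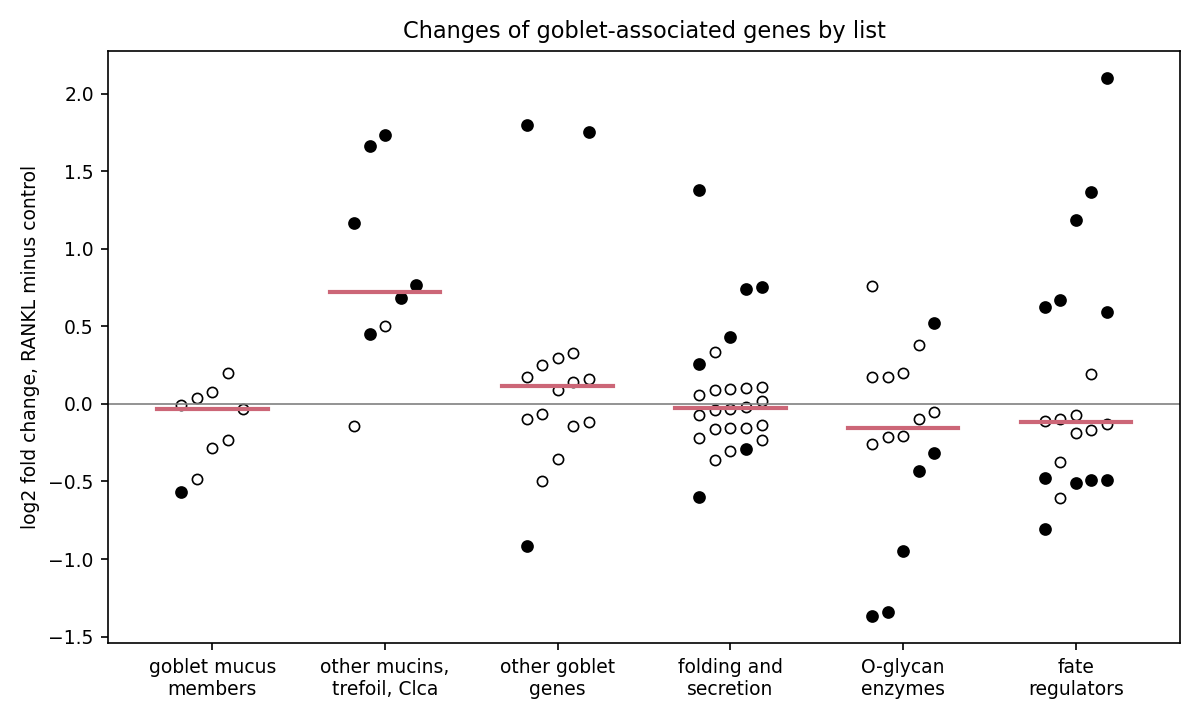
Log2 fold change of RANKL minus control (vertical axis) for each tested gene of the members and of 5 further goblet-associated lists (horizontal axis), with filled points for an adjusted p under 0.05 in edgeR, open points for the rest and red bars for list medians. The members lie between -0.57 and 0.20 with 1 filled point, while single genes of the other lists reach 2.10 for Il4ra and -1.37 for Galnt7.

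Markers of the other epithelial cell types gave the surroundings of these values. The share called was 25% of Paneth, 16.7% of enteroendocrine, 16.7% of enterocyte and 54.5% of stem cell markers tested. Over all genes tested it was 25.9%. Paneth cell markers rose for 2 and fell for 1 of 12 tested, and the summed level was 5870 to 7444 CPM in control and 5809 to 6987 CPM in RANKL libraries. The Paneth genes named by the rule, Defa21 (0.77 ± 0.15) and Defa17 (-0.70 ± 0.14), belong to the alpha-defensin family, whose members are similar in sequence, and whether reads were split between them was not tested. Enteroendocrine markers rose for 2 of 12, Cck by 0.39 ± 0.12 and Gip by 0.38 ± 0.12, though neither passed without the filter on low counts. Enterocyte markers rose for 1 (Apoa1, 0.33 ± 0.10) and fell for 1 (Mttp, -0.57 ± 0.10) of 12, and of 12 tuft cell markers 1 had enough counts and did not pass. Stem cell markers rose for 2 and fell for 4 of 11 tested, among them Lgr5, from 45.1 ± 3.53 to 10.3 ± 2.56 CPM. Cd44 and Ascl2 rose by 1.61 ± 0.12 and 1.10 ± 0.18. How far these shifts bear on the goblet genes was not tested.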

How the data were processed

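RNA of 4 control and 4 RANKL-treated organoid samples was made into 3′ libraries (QuantSeq FWD, single reads of 50 bases), and groups and replicate numbers were taken from the labels. The authors trimmed reads, removed abundant sequences, aligned with STAR to GRCm38 and counted reads strand-specifically per gene with featureCounts on Ensembl release 94. The deposited values are raw counts, with no molecular identifiers stated. Of 54532 identifiers, 54495 matched GENCODE M21, the source of symbols and positions. From the counts, TMM factors and a quasi-likelihood test were computed with edgeR 4.0.16 (R 4.3.3) after its expression filter, with Benjamini-Hochberg adjustment over 9971 genes and a threshold of 0.05. Values of CPM use TMM-scaled totals, and 95% intervals use the test's standard error. Exact permutation tests ran over 70 assignments of samples. Alternatives were RLE factors, library totals alone, DESeq2 1.42.0, limma-voom (limma 3.58.1), other filters, a replicate block, leaving out libraries, thinning, depth as a covariate and a threshold of 0.01. A fit without both libraries under 1000000 counts was added after the data were seen. The scripts were tested on simulated data. Named genes were the members, up to 4 genes with the largest change past the threshold per goblet list and up to 2 per marker list at a mean of at least 5 CPM, up to 3 a list that moved against its list, and the 5 most similar to the members; Muc13, Xbp1, Atoh1, Muc5ac, Muc6, Gp2 and Muc1 were added after their values were seen. Members and lists were chosen with earlier results of these data known.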

Additional observations from a re-analysis of the deposited data

Results flagged for a closer look

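In 5 of the 92 groups of 4 libraries checked, 1 library stood off from the rest, by a gap test that picks about 1 in 20 groups by chance, or 4.6 here. Among the members this was Agr2 in control replicate 4, at 86.0 CPM with the nearest other control at 115 CPM. Galnt6 was at 90.4 CPM in RANKL replicate 1, with the next at 77.2 CPM, and Ascl2 was at 27.4 CPM in RANKL replicate 1, with the next at 39.9 CPM. Cck was at 84.3 CPM in control replicate 2, with the next at 72.2 CPM, and Gip was at 78.9 CPM in control replicate 1, with the next at 73.2 CPM. Of these 5 libraries, those for Agr2, Galnt6 and Ascl2 are the shallow ones.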

How the results depend on the processing

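The count of members called was 1 with edgeR as reported, 0 with DESeq2, with libraries thinned, with the log2 library total as covariate and at a threshold of 0.01, and 2 (Agr2 and Spdef) without both libraries under 1000000 counts. Leaving out 1 library at a time gave 0 to 2. In DESeq2, 3 members had an unadjusted p under 0.05. All genes called numbered 2587 as reported, 1939 of 13065 with DESeq2, 1481 thinned and 1636 at a threshold of 0.01, and 1853 to 2601 with 1 library left out, the lowest without RANKL replicate 4. Calls in the 5 further goblet lists ranged from 24 to 34 over all alternatives, with 33 as reported. The labels do not say whether same-numbered libraries were paired. The correlations of their deviations ran from -0.03 to 0.10, with 1 of 4 over 0.1. Such weak values at uneven depth cannot decide whether they were. The fit with the replicate number as a block called 0 members, 31 goblet-list genes and 2610 genes, and Spdef was at -0.51 with an adjusted p of 0.065 in edgeR. Reversed signs, none past the threshold, were these. Tff3 went from -0.0093 to 0.0168 with library totals alone, 0.0067 with at least 10 counts in every library, 0.0061 with the replicate block, 0.0326 thinned and 0.0833 with the covariate. With 1 library left out, Tff3 ran from -0.0644 to 0.0465, Clca1 from -0.0215 to 0.2347, Fcgbp from -0.0306 to 0.0937, Spink4 from -0.0652 to 0.0279 and Ndufv3 from -0.0835 to 0.0215. Clca1 was at -0.0076 without both shallow libraries, and Spink4 at 0.0035 with the covariate. Thinned, Agr2 was at 0.1123 and Ern2 at 0.0682. The cause was not tested. Without the filter on low counts, or with RLE factors or limma-voom, Spdef was still the 1 member called. The ratio to Muc2 gave 0 calls over 7 members. Lowering the minimum to 3 counts in every library kept the same 7 members, as Creb3l1 had 2 counts in RANKL replicate 2 and Retnlb had 0. That setting was therefore no separate check. In the exact test 1 fully separated member can reach no less than an adjusted p of 0.2, so these 0 calls say little. Leaving out a library leaves too few assignments for an exact test of these ratios to pass 0.05, so none was made.

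Depth limited the low genes. Spdef and Creb3l1 had 11 and 8 counts in control replicate 4 and 12 and 6 in RANKL replicate 1, and a count of 0 in the shallowest library leaves a level of up to 5.14 CPM possible. The control group was deeper than the RANKL group in 3 of 4 libraries, so that depth and treatment are only partly separable.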

Other observations

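Muc1, a membrane-bound mucin outside the rule for named genes and under the filter on low counts, had 2, 0, 1 and 0 counts in the control and 2, 14, 9 and 6 counts in the RANKL libraries. Control replicate 4 and RANKL replicate 1 were too shallow to place it. Muc1 was singled out after its values were seen, and the edgeR fit reported above did not test it. Alternatives without the filter on low counts included Muc1, and their values for it are not given.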
